A study of Mus musculus with 6 samples.

Results

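The genes of the mouse major histocompatibility complex (MHC) and of antigen presentation were read in RNA from skeletal stem cells sorted from the junction of Achilles tendon and bone, on day 7 after partial injury or sham treatment. The members are every row of the count table whose symbol starts with H2-, together with B2m, Tap1, Tap2, Tapbp, Tapbpl, Nlrc5, Ciita, Cd74, Erap1, Cd1d1 and Mr1. They number 50 of 26130 genes: 39 H2- symbols and 11 named genes. All 6 libraries came from C57BL/6 mice: 2 sham control libraries, 1 uninjured library and 3 libraries from the partially injured interface. No age, allele or transgene is given for any group, and every group is a bulk RNA sample of cells sorted as mouse skeletal stem cells. The uninjured library is called a sham in its description field and uninjured in its title and treatment, and it therefore formed a separate group that joined the sham libraries only in a second comparison. The labels do not say whether libraries came from separate animals or from pools, so the p-values speak only to how these libraries vary, and part of that variation may be technical.

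MHC class I molecules sit on nearly all nucleated cells and show peptides from the cell's own proteins to CD8+ T cells. Each consists of a heavy chain and the shared light chain beta2-microglobulin, and is loaded in the endoplasmic reticulum with peptides pumped in by the TAP transporter. MHC class II molecules, pairs of an alpha and a beta chain assembled on the invariant chain Cd74, show endocytosed peptides to CD4+ T cells and are made mainly by dendritic cells, macrophages and B cells. Interferon-gamma raises class I through the transactivator Nlrc5 and class II through the transactivator Ciita, and can induce class II in stromal cells that otherwise lack it.

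Promoters of class II and class I members are shown because H2-Aa, H2-Ab1, H2-Eb1 and Cd74 were high in the same libraries. The class I genes H2-D1, B2m and Tap1 were present in all libraries. The sequences are RefSeq's on GRCm38.p6, from 250 bases before to 50 bases after the annotated start, written 5′ to 3′ on the gene's strand. Capitals mark matches on either strand to CCAAT, the core of the Y box bound by NF-Y in MHC promoters (ATTGG when read on the other strand), or to GAAA followed after any 2 bases by GAAA, the core of an interferon-stimulated response element (ISRE). A further motif, TTCNNNGAA, the core of a gamma-activated site, had no match in these windows. H2-Aa and H2-Eb1 code for class II chains, H2-D1 and B2m for the class I heavy and light chain, and Tap1 for a transporter subunit.
H2-Aa, chr17:34287774-34288073, minus strand: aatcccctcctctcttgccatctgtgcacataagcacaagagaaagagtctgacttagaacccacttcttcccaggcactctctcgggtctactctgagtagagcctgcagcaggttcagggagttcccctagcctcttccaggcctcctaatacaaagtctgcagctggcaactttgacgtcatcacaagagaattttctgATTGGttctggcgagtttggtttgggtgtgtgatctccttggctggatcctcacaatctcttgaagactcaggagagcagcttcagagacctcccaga
H2-Eb1, chr17:34305617-34305916, plus strand: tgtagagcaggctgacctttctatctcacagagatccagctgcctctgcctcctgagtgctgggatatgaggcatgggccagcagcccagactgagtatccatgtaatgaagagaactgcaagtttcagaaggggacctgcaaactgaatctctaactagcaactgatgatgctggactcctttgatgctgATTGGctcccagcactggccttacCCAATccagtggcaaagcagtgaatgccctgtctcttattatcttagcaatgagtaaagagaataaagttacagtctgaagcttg
H2-D1, chr17:35262844-35263143, plus strand: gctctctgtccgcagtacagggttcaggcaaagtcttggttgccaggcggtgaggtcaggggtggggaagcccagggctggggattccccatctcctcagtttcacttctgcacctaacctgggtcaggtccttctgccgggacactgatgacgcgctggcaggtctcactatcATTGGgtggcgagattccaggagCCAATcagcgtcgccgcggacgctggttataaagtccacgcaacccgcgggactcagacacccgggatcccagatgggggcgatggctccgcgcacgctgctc
B2m, chr2:122147437-122147736, plus strand: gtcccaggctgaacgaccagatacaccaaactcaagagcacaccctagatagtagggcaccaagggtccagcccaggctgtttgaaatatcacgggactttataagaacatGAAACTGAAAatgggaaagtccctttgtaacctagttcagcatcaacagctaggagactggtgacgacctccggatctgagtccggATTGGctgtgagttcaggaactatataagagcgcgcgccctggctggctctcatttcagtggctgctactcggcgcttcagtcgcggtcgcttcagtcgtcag
Tap1, chr17:34187306-34187605, plus strand: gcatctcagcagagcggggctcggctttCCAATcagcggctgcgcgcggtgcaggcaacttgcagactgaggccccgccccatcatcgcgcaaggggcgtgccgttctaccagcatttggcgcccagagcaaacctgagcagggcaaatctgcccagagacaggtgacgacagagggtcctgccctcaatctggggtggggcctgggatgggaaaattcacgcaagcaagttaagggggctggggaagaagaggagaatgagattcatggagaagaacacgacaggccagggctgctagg

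CCAAT was found in 30 of the 36 member promoters in the table, or 83.3%, against 37.9% of 27025 promoters of the same length, 1 for each gene. Several members are close copies of each other, so their promoters are not independent. The ISRE core was found in 4 of the 36 (B2m, Erap1, H2-T22 and H2-T23; 11.1% against 3.49%), and TTCNNNGAA in 3 (H2-DMb2, H2-M11 and H2-M3; 8.33% against 8.47%). No match of CCAAT overlapped one of the ISRE core in the sequences shown. Only the ISRE core as spelled above was searched, so a promoter without a match may still hold a looser form of the element. The letters describe these windows and not a factor's binding.

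Total counts ranged from 37506188 to 51089267 per library, and between 31 (sham 2) and 38 (sham 1) members had at least 1 count. Levels are given as CPM (counts-per-million) of library sizes scaled by the trimmed mean of M-values (TMM). A count of 0 allows a level of up to 0.0495 to 0.0828 CPM, depending on the library, by counting error alone. Genes of the skeletal stem cell gate and stroma (Itgav, Cd200, Prrx1, Pdgfra and collagens among 10) had counts in every library. Sham 1, injured 1 and injured 2 stood apart in leukocyte markers, which summed to 1330.2, 1539 and 309 CPM over 8 genes. The sums were 0.994 CPM in sham 2, 6.66 CPM in injured 3 and an intermediate 87.7 CPM in the uninjured library. Ptprc, the CD45 gene that defines leukocytes, was at 0 in sham 2 and injured 3. In bulk RNA, fewer cells of a type and less RNA per cell cannot be told apart.

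The classical class I heavy chains, which present peptides to CD8+ T cells, were found in all 6 libraries, highest in sham 1 and lowest in injured 3. H2-D1 stood at 1235 and 449.8 CPM in sham 1 and 2, 626 CPM in the uninjured library, and 618, 327 and 233 CPM in injured 1, 2 and 3. The group means were 393 ± 201 CPM in injured (SD, n = 3) and 842 ± 555 in sham control (SD, n = 2), and the fitted difference was -1.10 ± 0.61 on the log2 scale (SE). Injured 1 lay above sham 2, so the groups overlapped. H2-K1, the other classical heavy chain of this strain, stood at 472 and 192 CPM in sham 1 and 2, 174 CPM in the uninjured library, and 246, 177 and 145 CPM in injured 1, 2 and 3. Injured 2, injured 3 and the uninjured library were below sham 2 and injured 1 above it, and the log2 fold change against sham control was -0.81 ± 0.49 (SE). Neither gene passed: edgeR's quasi-likelihood test gave unadjusted p = 0.116 for H2-D1 and 0.144 for H2-K1 (Benjamini-Hochberg adjusted p = 0.865 for each). Without sham 1 the log2 fold changes were -0.20 and -0.02.

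The light chain gene B2m, needed for every class I molecule to reach the surface, varied least of the class I genes described here, by 2.37 times between its highest and lowest library. Its level was 448 and 282 CPM in sham 1 and 2, 313 CPM in the uninjured library, and 283, 287 and 189 CPM in injured 1, 2 and 3. Injured 1 and 2 lay close to sham 2, and injured 3 was lower (log2 fold change against sham control -0.53 ± 0.41, SE). Tapasin (Tapbp), which bridges class I to the transporter, stood at 287 and 153 CPM in sham 1 and 2, 259 CPM in the uninjured library, and 177, 109 and 77.96 CPM in injured 1, 2 and 3. All injured libraries were below sham 1 and the uninjured library, while injured 1 exceeded sham 2 (log2 fold change -0.86 ± 0.49 against sham control and -0.94 ± 0.42 against all non-injured libraries, SE).

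Tap1, an ATP-binding subunit of the peptide transporter, was the only member with an unadjusted p under 0.05, and it was lower in injured cells. It stood at 62.03 and 15.4 CPM in sham 1 and 2, 14.9 CPM in the uninjured library, and 7.45, 6.11 and 7.07 CPM in injured 1, 2 and 3. Each injured library lay below each library without injury, and the injured values were close together (6.87 ± 0.688 CPM, SD, n = 3) whereas sham 1 was well above sham 2 (38.7 ± 32.99 CPM, SD, n = 2). The log2 fold change was -2.49 ± 0.73 against sham control (SE, unadjusted p = 0.0113; edgeR adjusted p = 0.865) and -2.17 ± 0.71 against all non-injured libraries (unadjusted p = 0.0175; edgeR adjusted p = 0.524). DESeq2 gave adjusted p = 0.0517 and 0.0936, both short of 0.05. Sham 1 set much of the size, since without it the log2 fold change was -1.16 against sham control and -1.14 against non-injured. Tap2, the partner subunit, did not share the pattern of separate groups: it stood at 27.1 and 18.9 CPM in sham 1 and 2, 27.8 CPM in the uninjured library, and 25.2, 19.5 and 7.28 CPM in injured 1, 2 and 3. Injured 1 and 2 lay within the range of the others and injured 3 below it, and the log2 fold change was -0.41 ± 0.68 (SE). Whether Tap1 and Tap2 differ in their response was not tested.

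Of the remaining loading genes, the peptide-trimming enzyme Erap1 ranged from 4.72 (injured 2) to 30.3 CPM (uninjured). The tapasin-related peptide editor Tapbpl ranged from 6.09 (uninjured) to 18.5 CPM (sham 2), and is the only class I loading gene that was higher in sham 2 than in sham 1. Both were chosen for naming after their values were seen, as were all members named below without values in every library.

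**Figure D1:**
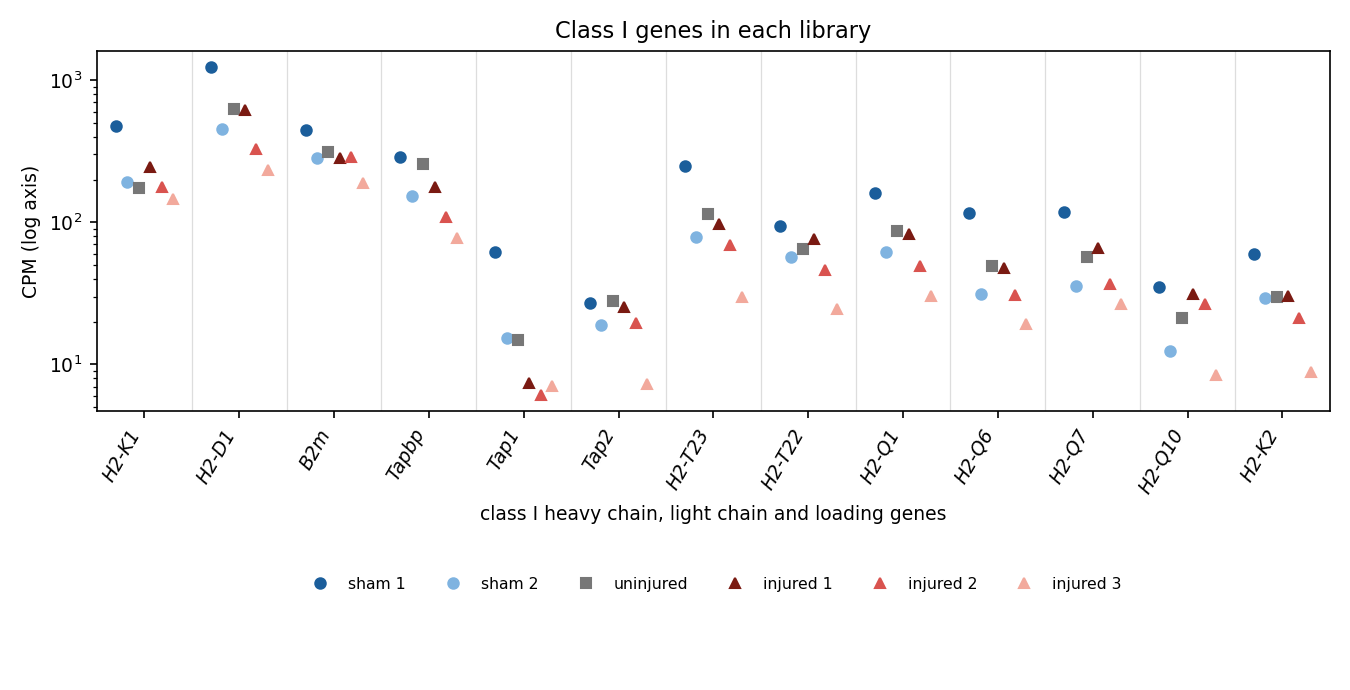
Level of 13 class I genes in each library (CPM, log axis); circles are sham control, squares uninjured and triangles injured libraries, each shade a library. Sham 1 is highest for 12 genes and injured 3 lowest for 12, while for Tap1 all 3 injured libraries, at 6.11 to 7.45 CPM, lie below the rest.

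Non-classical class I genes, which code for heavy chains of limited polymorphism with specialised ligands, had the same highest and lowest libraries as the classical ones, sham 1 and injured 3, for the 7 described next. H2-T23 codes for Qa-1, the ligand of the NK cell receptor NKG2A, and stood at 248 and 79.4 CPM in sham 1 and 2, 115 CPM in the uninjured library, and 97.9, 69.4 and 29.999 CPM in injured 1, 2 and 3. Injured 1 exceeded sham 2, so the groups overlapped (log2 fold change -1.31 ± 0.65, SE, unadjusted p = 0.0836 by edgeR's quasi-likelihood test, adjusted p = 0.865). H2-T22, whose product is a ligand of some gamma-delta T cells, stood at 94.5 and 57.2 CPM in sham 1 and 2, 65.1 CPM in the uninjured library, and 75.95, 46.5 and 24.5 CPM in injured 1, 2 and 3. Its span between libraries was 3.85 times, against 8.26 for H2-T23. For both, sham 1 was highest and injured 3 lowest.

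The Q-region genes showed the same order at the ends. H2-Q7, a source of the Qa-2 antigen, stood at 119 and 35.8 CPM in sham 1 and 2, 57.4 CPM in the uninjured library, and 65.6, 37.04 and 26.6 CPM in injured 1, 2 and 3. H2-Q6, its neighbour, stood at 117 and 31.5 CPM in sham 1 and 2, 49.1 CPM in the uninjured library, and 47.8, 30.98 and 19.3 CPM in injured 1, 2 and 3. Injured 2 lay close to sham 2 for both genes. H2-Q1 stood at 162 and 61.4 CPM in sham 1 and 2, 87.4 CPM in the uninjured library, and 82.6, 48.9 and 30.1 CPM in injured 1, 2 and 3, and here too injured 1 exceeded sham 2. H2-Q10, known in mouse as a secreted class I molecule of liver, stood at 34.95 and 12.5 CPM in sham 1 and 2, 21.2 CPM in the uninjured library, and 31.4, 26.4 and 8.42 CPM in injured 1, 2 and 3. For H2-Q10 injured 1 and 2 exceeded sham 2 and the uninjured library, and the log2 fold change was -0.10 ± 0.77 (SE). H2-K2, annotated as a transcribed pseudogene, stood at 60.1 and 29.4 CPM in sham 1 and 2, 29.7 CPM in the uninjured library, and 30.4, 21.1 and 8.89 CPM in injured 1, 2 and 3. None of these passed, with log2 fold changes against sham control of -0.85 ± 0.63 for H2-Q7, -1.18 ± 0.66 for H2-Q6, -1.05 ± 0.59 for H2-Q1 and -1.15 ± 0.65 for H2-K2 (SE).

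These genes share sequence, so their counts are uncertain individually. Of all 31-base stretches in GENCODE M21 transcripts of H2-T22, 51% also occur in transcripts of another gene, mostly H2-T10, and for H2-Q6 the share is 50.3%. It is 39.1% for H2-Q7, 26.7% for H2-D1, 22.8% for H2-K1 and 24.5% for H2-T23. B2m shares none, and Tap1 0.825% and H2-Ab1 0.267%. The length of 31 was chosen here, and the sources used here do not state how such reads were split between genes.

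Mr1 presents microbial vitamin metabolites to MAIT cells, and its injured libraries, like those of Tap1, did not overlap the others. It stood at 24.003 and 21.3 CPM in sham 1 and 2, 13.6 CPM in the uninjured library, and 6.88, 10.1 and 9.12 CPM in injured 1, 2 and 3. The log2 fold change was -1.38 ± 0.64 against sham control (SE; edgeR unadjusted p = 0.0683, adjusted p = 0.865), and between -1.50 and -1.24 with any 1 library left out. H2-Q4 did not overlap either, at a low level, with 8.54 and 1.57 CPM in sham 1 and 2, 3.09 CPM in the uninjured library, and 1.15, 1.27 and 0.942 CPM in injured 1, 2 and 3. Its log2 fold change of -2.17 ± 1.56 against sham control (SE) rested on sham 1, without which it was -0.49. Cd1d1, which presents lipids to NKT cells, was at 0 in sham 1 and stood at 6.79 CPM in sham 2, 0.876 CPM in the uninjured library, and at 6.47, 11.1 and 12.8 CPM in injured 1, 2 and 3. Among members that reached 1 CPM, Cd1d1 is the only one that sham 1 lacked while injured 3 had its highest level. Of its 31-base stretches, 24.2% are shared with Cd1d2. H2-M3, which presents formylated peptides, ranged from 1.52 CPM in injured 3 to 7.54 CPM in sham 2.

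Class II genes differed far more between libraries of 1 group than between the groups. H2-Ab1, the beta chain of I-A, stood at 319 and 2.29 CPM in sham 1 and 2, 4.43 CPM in the uninjured library, and 231, 97.3 and 12.5 CPM in injured 1, 2 and 3. Its partner alpha chain gene H2-Aa stood at 152 and 0.0276 CPM in sham 1 and 2, 1.78 CPM in the uninjured library, and 124, 60.4 and 0.578 CPM in injured 1, 2 and 3; the value in sham 2 is 1 count. Sham 1, injured 1 and injured 2 were high for both genes, and sham 2, the uninjured library and injured 3 low, so each labelled group with replicates held high and low libraries.

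H2-Eb1, the beta chain of I-E, stood at 117 and 2.43 CPM in sham 1 and 2, 4.80 CPM in the uninjured library, and 84.3, 49.2 and 0.664 CPM in injured 1, 2 and 3. This strain lacks I-E at the surface because its alpha chain gene is not expressed, and the pseudogene H2-Ea-ps had 1 count in sham 1 and none elsewhere. The invariant chain Cd74, which blocks the class II groove until the endosome, stood at 598 and 3.40 CPM in sham 1 and 2, 27.2 CPM in the uninjured library, and 396, 160.1 and 2.14 CPM in injured 1, 2 and 3. The uninjured library held more Cd74 than sham 2 and injured 3, yet far less than sham 1, injured 1 and injured 2. The log2 fold changes against sham control were -0.50 ± 1.64 for H2-Ab1, -0.30 ± 2.29 for H2-Aa, -0.42 ± 1.76 for H2-Eb1 and -0.69 ± 1.97 for Cd74 (SE), with edgeR unadjusted p from 0.735 to 0.899. Without sham 1 they were 5.63, 10.99, 4.20 and 5.77 in that order. Without sham 2 they were -1.49, -1.30, -1.39 and -1.68, so that the direction rested on which sham library was used.

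H2-DM, which exchanges the invariant chain fragment for peptide, was less uniform. H2-DMa stood at 35.5 and 0 CPM in sham 1 and 2, 0 CPM in the uninjured library, and 10.5, 4.00 and 3.49 CPM in injured 1, 2 and 3. H2-DMb1 stood at 44.1 and 9.42 CPM in sham 1 and 2, 3.02 CPM in the uninjured library, and 16.5, 5.83 and 17.9 CPM in injured 1, 2 and 3. Unlike the I-A genes, H2-DMb1 was higher in injured 3 than in injured 1 and 2. H2-DMb1 shares 31.4% of its 31-base stretches with H2-DMb2, which ranged from 0.706 CPM in the uninjured library to 12.2 CPM in sham 1. H2-DO, an inhibitor of H2-DM in B cells, had H2-Oa at 5.11 CPM in sham 1, 4.25 CPM in injured 1 and 0.677 CPM in injured 2, while H2-Ob was at 3.89 CPM in sham 1 alone. H2-Oa was at 0 in the other libraries.

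**Figure D2:**
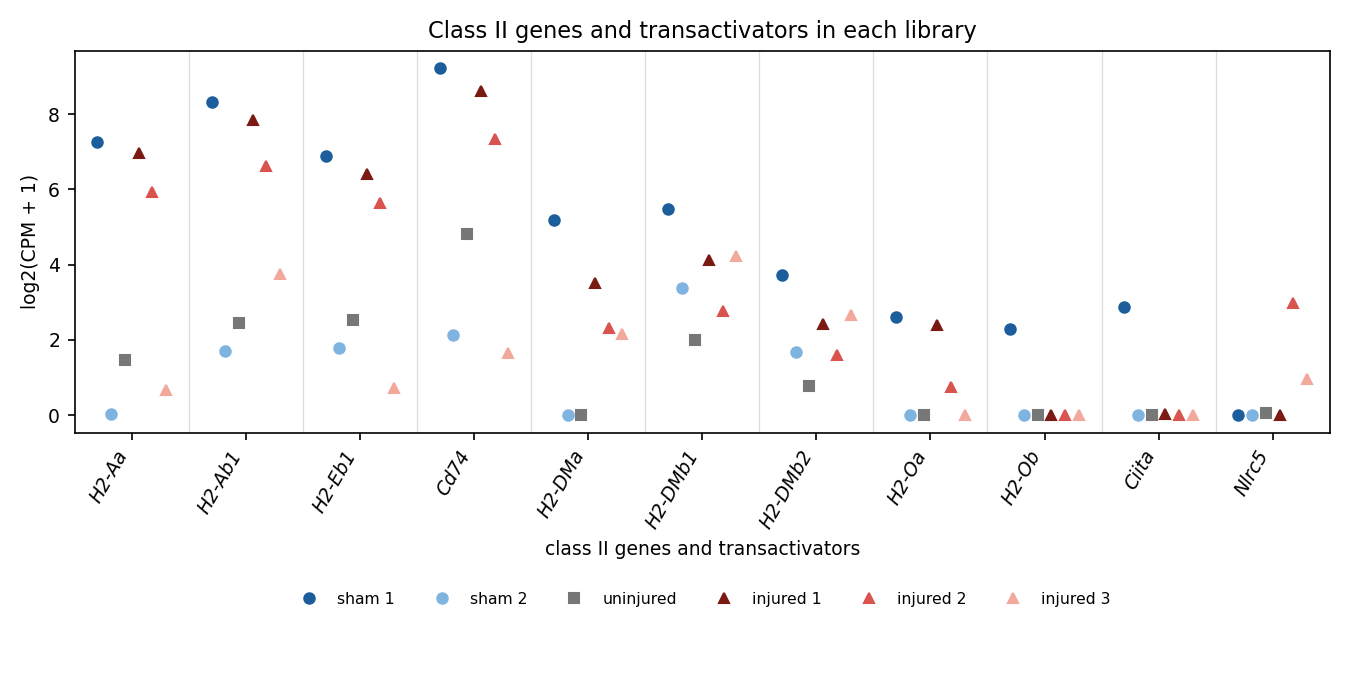
Level of class II genes and of the transactivators Ciita and Nlrc5 in each library, as log2(CPM + 1); circles are sham control, squares uninjured and triangles injured libraries, each shade a library. For H2-Aa, H2-Ab1, H2-Eb1 and Cd74, sham 1, injured 1 and injured 2 lie above the other libraries, Cd74 reaching 598 CPM in sham 1.

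The transactivators were low or absent in most libraries. Ciita, the master regulator of class II, stood at 6.35 CPM in sham 1 (235 counts), at 1 count in injured 1 and at 0 elsewhere, although class II transcripts were also high in injured 1 and 2. Nlrc5 stood at 6.84 CPM in injured 2 (414 counts) and 0.942 CPM in injured 3 (44 counts), at 2 counts in the uninjured library and at 0 in the other libraries, although H2-K1, H2-D1 and B2m were present in all. Injured 1 was thus at 0 like both sham libraries, and most Nlrc5 counts came from 1 library. Reads carry no molecular identifiers, so such a count need not stand for many molecules. Neither passed by edgeR (adjusted p = 0.865 each) or DESeq2 (adjusted p = 0.470 and 0.279).

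Class II levels were high in the libraries with high sums of leukocyte markers. H2-Aa, H2-Ab1, H2-Eb1 and Cd74 together summed to 1186 and 8.15 CPM in sham 1 and 2, 38.2 CPM in the uninjured library, and 835, 367 and 15.9 CPM in injured 1, 2 and 3. The macrophage and monocyte list (12 genes, among them Adgre1, Csf1r, Cd68 and C1qa) summed to 2935 and 54.04 CPM in sham 1 and 2, 205 CPM in the uninjured library, and 4872, 1229 and 49.3 CPM in injured 1, 2 and 3. Both sums were high in sham 1, injured 1 and injured 2 and low in the rest. Lyz2, which neutrophils also express, made up most of the macrophage sum in the high libraries, with 2234 CPM in sham 1, 3576 in injured 1 and 897 in injured 2, against 2.49 in sham 2. Mertk, a receptor for engulfing dead cells, went the other way among the injured libraries, with 4.37, 2.82 and 11.97 CPM in injured 1, 2 and 3, and was highest in the uninjured library at 28.5 CPM. The counts of the 4 class II genes divided by those of the macrophage list lay between 0.151 (sham 2) and 0.404 (sham 1), although the class II sum itself spanned 146 times. The macrophage sum was not made up alike in all libraries. In sham 2 its largest gene was Cd14, at 30.2 CPM, followed by Mertk, Mrc1 and Csf1r at 6.74, 6.41 and 6.30 CPM. The ratio therefore compares different genes between libraries and does not show a like macrophage content. Divided by the 8 leukocyte markers, the class II counts varied more, from 0.436 in the uninjured library to 8.19 in sham 2, with 0.892 in sham 1 and 0.543, 1.19 and 2.39 in injured 1, 2 and 3. The points share library and depth, and no test is given. In sham 2, 5 of 12 macrophage markers were at 0 (Adgre1, Cd68, C1qb, C1qc and Ccr2), in the uninjured library 3 (Adgre1, Fcgr1 and Ccr2), and in the remaining libraries none.

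B cell and dendritic cell markers had lower sums, again highest in sham 1, injured 1 and injured 2. The B cell list (8 genes) summed to 82.2 and 0.0552 CPM in sham 1 and 2, 1.78 CPM in the uninjured library, and 37.6, 9.50 and 0.707 CPM in injured 1, 2 and 3. The dendritic cell list (10 genes) summed to 65.6 and 10.5 CPM in sham 1 and 2, 6.09 CPM in the uninjured library, and 67.1, 33.8 and 8.84 CPM in injured 1, 2 and 3. Xcr1 was at 0 throughout and Clec9a at 0 outside injured 3. Single dendritic markers departed from the order of the sum. Clec10a was at 0 in both sham libraries and the uninjured library, and at 13.9, 7.04 and 0.107 CPM in injured 1, 2 and 3. Zbtb46 stood at 4.70 and 8.28 CPM in sham 1 and 2 and 6.06 CPM in the uninjured library. It made up most of the sum in sham 2 and the uninjured library. Itgax was at 0 in injured 2, and Batf3 was highest in injured 3, at 3.64 CPM. T and NK cell markers (9 genes) ranged from 0 CPM in the uninjured library to 11.7 CPM in sham 1. Neutrophil markers (10 genes) ranged from 4.75 CPM in injured 3 to 9970.3 CPM in sham 1, and the uninjured library, at 793 CPM, exceeded injured 2, at 564 CPM. Erythroid markers (6 genes) ranged from 1.19 CPM in sham 2 to 38765 CPM in sham 1. Endothelial markers (8 genes) summed to 1322 and 0.746 CPM in sham 1 and 2, 694 CPM in the uninjured library, and 263, 163 and 60.8 CPM in injured 1, 2 and 3. The part of any of these cell types in the class I or class II levels was not tested.

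Class I differed from class II in its span. Grouped as class I heavy chains were 30 genes, including the annotated transcribed pseudogenes H2-K2, H2-Bl and H2-T10 and 8 genes with no count. They summed to 2647 and 1013 CPM in sham 1 and 2, 1291 CPM in the uninjured library, and 1371, 836 and 567 CPM in injured 1, 2 and 3. That is a span of 4.67 times, and sham 2 and injured 3, where the leukocyte markers were lowest, kept sums of 1013 and 567 CPM. Between those libraries H2-D1, H2-K1 and B2m stood at 449.8, 192 and 282 CPM in sham 2 and at 233, 145 and 189 CPM in injured 3.

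**Figure D3:**
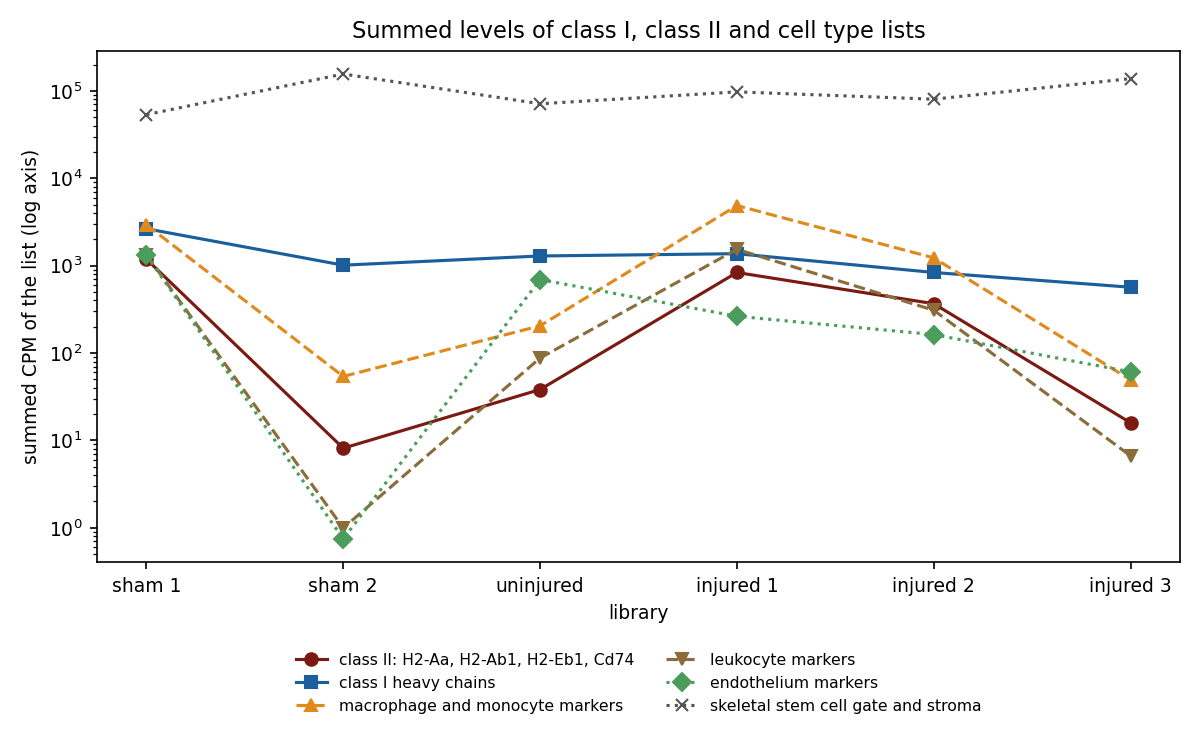
Summed CPM (log axis) of 4 class II genes, 30 genes grouped as class I heavy chains (pseudogenes included) and lists of cell type markers in each of the 6 libraries. Lines only join the points of a list. The class II sum falls between 8.15 and 1186 CPM and has its high and low libraries in common with the macrophage and leukocyte lists, while class I stays between 567 and 2647 CPM.

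The comparison of injured with sham control asked how cells of the injured interface differ in these genes. No member passed an adjusted p of 0.05 by edgeR, DESeq2 or limma-voom. Of 50 members, 37 passed the low-count filter, which a gene can pass through 1 library, and 32 of these had a log2 fold change below 0, where 46.0% of all genes tested did. The median was -0.85 on the log2 scale over the members tested, and the same with 3 members lacking counts in a group set at their bound, beside 0.09 over all 16752 genes. By role it was -0.96 for the classical heavy chains, -0.70 for the loading genes, -0.85 for the non-classical class I genes and -0.69 for class II. Only Tap1 had an unadjusted p under 0.05, 1 of 37 or 2.70%, against 4.64% of all genes (778; 2.44% higher and 2.20% lower). The background share of genes called by edgeR was 0%, by DESeq2 2.20% (369 genes; 1.43% higher and 0.770% lower) and by limma-voom 0.00597% (1 gene). For 3 members (Mr1, Tap1 and H2-Q4; 8.11%) the injured libraries lay wholly below sham control and for 0 wholly above, whereas among all genes 9.12% lay below and 11.9% above, 21.0% together. Without sham 1, which leaves sham 2 as the only sham library, the median over members was 0.27, beside 0.26 over all genes. Sham 2 held 1 count of H2-Aa and 0 of H2-DMa, so their fold changes in that fit rest on almost no sham counts. Without sham 1 and injured 1 the median was -0.23 beside 0.20. Without sham 2, which leaves sham 1 alone, it was -1.46 beside 0.30.

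Against all 3 libraries without injury the picture was similar, and because the sham libraries are shared this is no separate evidence. Of 33 members tested, 29 had a log2 fold change below 0, against 49.9% of 14110 genes, and the median was -0.57 beside 0.00. By edgeR, DESeq2 and limma-voom 0 members passed, where the background was 0%, 2.45% (0.992% higher and 1.45% lower) and 0.0496%. Tap1 alone had an unadjusted p under 0.05 (3.03% of members, against 7.43% of all genes, 3.71% higher and 3.72% lower). Mr1, Tap1 and H2-Q4 lay wholly below, 9.09% of members tested against a background of 7.07%, and 0 lay above, against 9.23% (16.3% in either direction). Without sham 1 the median was -0.21 beside 0.06 over all genes, and H2-Aa, H2-Ab1 and H2-DMa had an unadjusted p under 0.05 in the higher direction, where 9.75% of all genes did in either direction. H2-DMa had no count in the control libraries of that fit and passed its filter through the injured libraries.

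**Figure D4:**
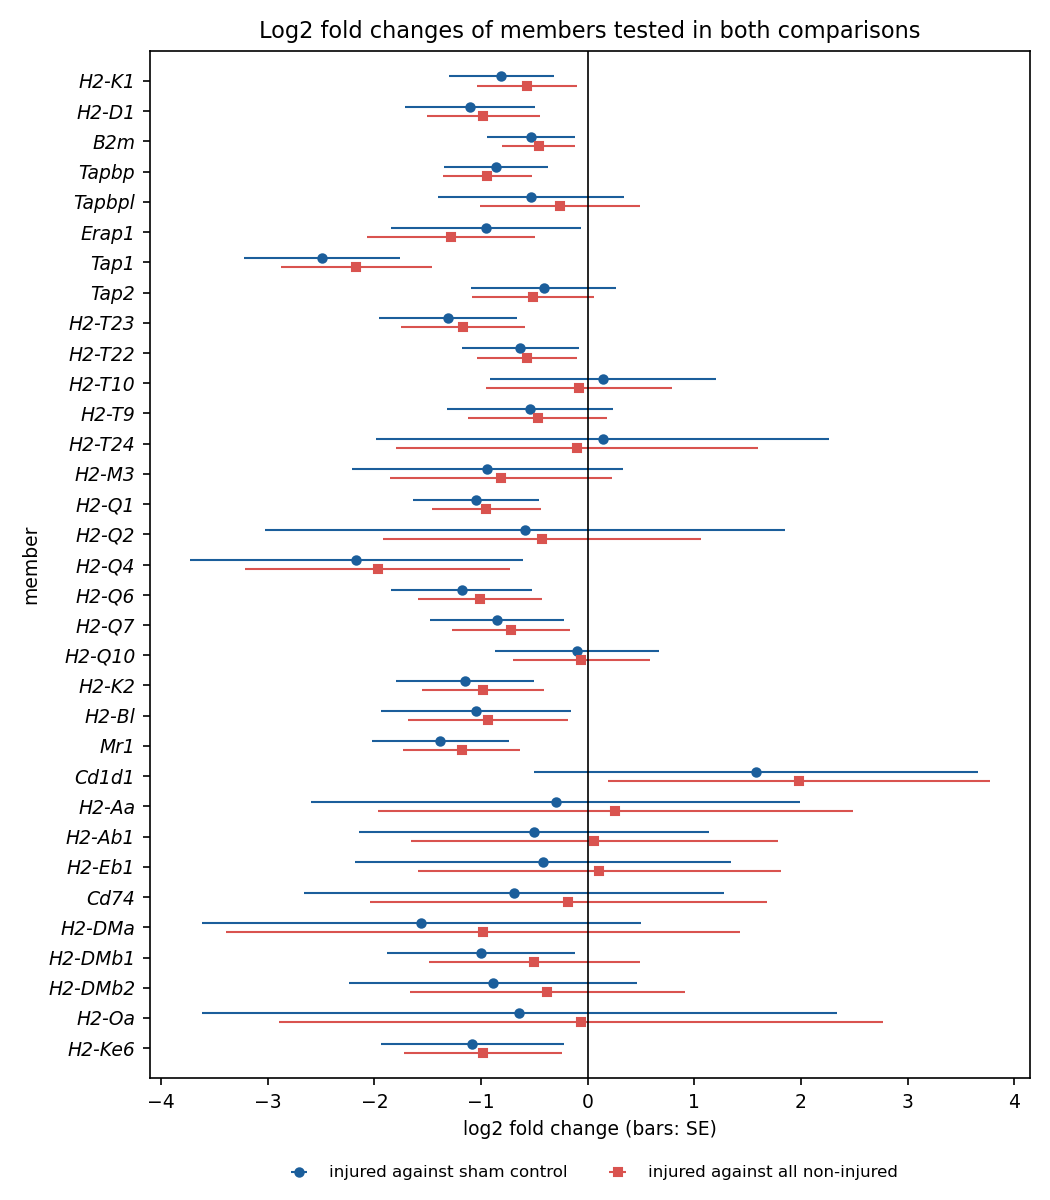
Log2 fold change with its SE for the 33 members tested in both comparisons; circles, injured against sham control (n = 3 and 2); squares, injured against all non-injured libraries (n = 3 each). Tap1 lies farthest below 0, at -2.49 and -2.17, and the bars of H2-Aa, H2-Ab1, H2-Eb1 and Cd74 span 0 with SE from 1.64 to 2.29.

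Other genes of the pathway were read from lists drawn up with earlier results of these data known. In interferon-gamma signalling, 14 of 17 genes tested had a log2 fold change below 0 against sham control, where 46.0% of all genes did. By edgeR 3 had an unadjusted p under 0.05, all lower (Igtp, Irf1 and Socs3), where the background of lower genes was 2.20%. The 3 genes above 0 were Ifngr2, Irgm1 and Cxcl10. Ifng itself had no count in any library. Igtp, an interferon-inducible GTPase, stood at 29.004 and 15.7 CPM in sham 1 and 2, 20.1 CPM in the uninjured library, and 0.249, 0.446 and 1.97 CPM in injured 1, 2 and 3. Its injured libraries lay wholly below the others (log2 fold change -4.65 ± 1.16, SE); edgeR's adjusted p was 0.865 and DESeq2's 0.00123. Irf1, a transcription factor that acts on class I promoters, stood at 182 and 94.7 CPM in sham 1 and 2, 267 CPM in the uninjured library, and 66.9, 66.97 and 57.0 CPM in injured 1, 2 and 3 (log2 fold change -1.12 ± 0.40, SE, and -0.57 without sham 1). The feedback inhibitor Socs3 differed by -1.10 ± 0.40 (SE). Injured libraries were wholly below sham control for Igtp, Irf1 and Socs3, among 6 genes of the list, where 9.12% of all genes were. They were wholly above for 1 gene of the list, Cxcl10, where 11.9% of all genes were. Cxcl10 stood at 0.378 and 3.89 CPM in sham 1 and 2, 6.30 CPM in the uninjured library, and 15.8, 6.49 and 10.8 CPM in injured 1, 2 and 3.

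The list of immunoproteasome and class I peptide supply genes had 10 of 14 genes above 0 and none with an unadjusted p under 0.05. For this list and those below, the background against sham control was 8997 of 16752 genes tested above 0. The immunoproteasome subunits Psmb8, Psmb9 and Psmb10 were highest in sham 1, at 54.3, 25.2 and 55.4 CPM, and at 4.94, 0.773 and 1.99 CPM in sham 2. Injured values of Psmb9 and Psmb10 lay between those of the sham libraries, while Psmb8 ranged from 2.95 CPM in injured 3, below sham 2, to 34.9 CPM in injured 1; the 3 were chosen for naming after their values were seen, as was Ctss below. Calreticulin (Calr), a chaperone of the class I loading complex and of the endoplasmic reticulum at large, was higher in every injured library, at 374 and 367 CPM in sham 1 and 2, 377 CPM in the uninjured library, and 733, 538 and 773 CPM in injured 1, 2 and 3. Its log2 fold change was 0.88 ± 0.40 (SE; edgeR unadjusted p = 0.0643, adjusted p = 0.865). Canx and Uggt1, which had the next smallest p, differed by 1.11 ± 0.56 and 1.00 ± 0.56 (SE).

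Class II processing genes had 5 of 7 above 0 and none with an unadjusted p under 0.05; the smallest p belonged to Sppl2a, Ifi30 and Ctsl. Cathepsin S (Ctss), which cleaves the invariant chain, split the libraries as Cd74 did, at 212 and 0.221 CPM in sham 1 and 2, 3.72 CPM in the uninjured library, and 336, 129 and 1.73 CPM in injured 1, 2 and 3. The lysosomal thiol reductase Ifi30 stood at 41.2 and 16.96 CPM in sham 1 and 2, 18.5 CPM in the uninjured library, and 82.4, 43.9 and 16.9 CPM in injured 1, 2 and 3. Of the 7 factors of MHC promoters (Rfx and NF-Y subunits and Creb1), 3 were above 0, none had an unadjusted p under 0.05, and Rfxap, Nfyc and Rfxank had the smallest p. For T cell co-signalling ligands, 5 of 8 were above 0 against sham control, of which Cd80, Cd86, Cd40 and Pdcd1lg2 had 0 to 2 counts in each sham library and passed the filter through other libraries. Against all non-injured libraries 1 of 4 tested was above 0. Against sham control 1 had an unadjusted p under 0.05 (the adhesion ligand Icam1, lower, -2.55 ± 0.56, SE). Cd86, which costimulates T cells, stood at 6.22 and 4.36 CPM in injured 1 and 2, at 2 counts in sham 1 and at 0 elsewhere. Cd80 reached 2.15 CPM in injured 2 and was at 0 in both sham libraries. By edgeR 0 genes of these 5 lists passed over all genes. DESeq2 called Igtp and Icam1 against sham control, where it called 2.20% of all genes. Against all non-injured libraries DESeq2 called Igtp (adjusted p = 0.00012), Icam1 (0.0146), Socs3 (0.0181) and Irf1 (0.0333), all lower in injured cells. The background of DESeq2 calls there was 2.45% of all genes, 1.45% lower.

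The rest of the members were low or absent. No count was found in any library for 8 of them: H2-M1, H2-M2, H2-M10.1, H2-M10.3, H2-M10.4, H2-M10.5, H2-M10.6 and H2-M11. Another 7 had some counts but never reached 1 CPM (H2-Eb2, H2-Ea-ps, H2-Q2, H2-T3, H2-M5, H2-M9 and H2-M10.2). H2-T9, H2-T10, H2-T24 and H2-Bl had highest levels between 5.48 and 30.5 CPM; H2-T10 was highest in injured 1 (11.5 CPM), and sham 1 was highest for H2-T9 and H2-Bl. H2-Ke6 carries the prefix of the region but codes for a hydroxysteroid dehydrogenase and presents no antigen; it ranged from 6.68 CPM in sham 2 to 42.1 in sham 1, and 76.1% of its 31-base stretches lie in another annotated gene. Of the 50 members, 49 were matched in RefSeq on GRCm38.p6, and 41 lie on chromosome 17. The member without a match, and so without a chromosome here, was H2-T9.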

How the data were processed

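RNA from 6 libraries of sorted mouse skeletal stem cells was sequenced after amplification of low-input cDNA, per the labels' protocols. The authors deposited whole-number counts for each gene symbol, with no scaling between libraries apparent. Per the submitters' processing notes, the tools are Salmon (0.12.0), DESeq and DESeq2 (1.22.2), and the builds GRCm38.p6 and mm9; the sources used here give neither their roles nor the annotation, strand use or summing to genes. Rounded estimates are therefore possible, and overlapping antisense genes cannot be told apart.

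Counts were scaled by TMM and kept by filterByExpr (minimum count 10). Tests were edgeR 4.0.16 quasi-likelihood F tests under R 4.3.3, fitted over all genes with Benjamini-Hochberg adjustment and a threshold of 0.05. The comparison with sham control fitted 3 groups (3 residual degrees of freedom), that with all non-injured libraries 2 groups (4). SEs derive from the F statistic. The method was tested on simulated data in which all genes shared the same dispersion, so it does not cover genes as variable as class II here. Alternatives were other scalings and filters, DESeq2 1.42.0, limma 3.58.1 (voom), libraries left out, and a replicate block. Floors cover counting error only, while the SEs also take in the spread between libraries.

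Members and lists were chosen with earlier results of these data known. Values in every library are given for members with a mean of at least 20 CPM or an unadjusted p under 0.05, and for a fixed set that includes Ciita and Nlrc5; other genes were named after their values were seen. Of each pathway list up to 3 genes with the smallest p are named by rule. Promoters matched 36 of 50 members by symbol. Of the deposited symbols, 26 read as dates, and March1 and March8 were not matched. All 6 columns were used.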

Additional observations from a re-analysis of the deposited data

How the results depend on the processing

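The count of 0 members passing held in both comparisons under every alternative run. Against sham control, the number with an unadjusted p under 0.05 moved from 1, lower, to 5 with DESeq2 (1 higher and 4 lower). It was 2 with limma-voom and 2 with no low-count filter, all lower, and 0 with the replicate block. Against all non-injured libraries it moved to 4 with DESeq2, all lower, and 2 with limma-voom (1 higher and 1 lower). There it was 4 without sham 1 and injured 1, with H2-Ab1, H2-DMa and Nlrc5 higher and Tapbp lower. Against sham control that alternative leaves sham 2 alone, so no count is given for it. The share of all genes moved too, from 4.64% to 9.64%, 6.08%, 4.36% and 4.14% in the first comparison, and from 7.43% to 10.3%, 9.70% and 10.4% in the second. With 1 library left out it ranged from 1 to 11 and from 0 to 5, the highest without sham 2 and without injured 1, and the median log2 fold change from -1.46 to 0.27 and from -1.09 to -0.21, the upper end without sham 1 in each. Of 48 gene results, 35 kept their direction under all alternatives, and the class II genes, H2-Q10, H2-Q6, H2-Q7 and H2-K1 account for the other 13. The 48 are not all of members, since they include Igtp, Irf1, Socs3, Icam1 and Calr. Mr1 and H2-Q4 were added after their values were seen. All of these added genes kept their direction in both comparisons, so the share is not the stability of the members alone. Against sham control, the log2 fold changes that turned were 1.25 (H2-Ab1), 2.75 (H2-Aa) and 0.20 (Cd74) with limma-voom, 2.42 (H2-Ab1), 4.21 (H2-Aa), 1.89 (H2-Eb1), 0.44 (H2-Q10) and 2.43 (Cd74) with the replicate block, 4.58 (H2-Ab1), 9.97 (H2-Aa), 3.36 (H2-Eb1), 0.47 (H2-Q10) and 4.58 (Cd74) without sham 1 and injured 1, and 0.01 (H2-Q10) with library size scaling. Against all non-injured libraries they were -0.02 (H2-Ab1) with DESeq2, -0.02 (H2-Ab1) with relative log expression scaling, 0.45 (Cd74) with limma-voom, 0.05 (H2-Q10) and 2.41 (Cd74) without sham 1 and injured 1, and -0.63 (H2-Aa) and -2.43 (H2-Eb1) without sham 1, injured 1 and injured 2, an alternative chosen after seeing the data that leaves injured 3 as a lone sample assumed to vary like the others. The cause was not tested. Leaving out 1 library gave, against sham control, -1.32 to 10.99 (H2-Aa), -1.39 to 4.20 (H2-Eb1), -0.66 to 0.82 (H2-Q10), -1.55 to 5.63 (H2-Ab1), -1.84 to 0.05 (H2-Q6), -1.46 to 0.27 (H2-Q7), -1.89 to 5.77 (Cd74), and against all non-injured -0.98 to 5.08 (H2-Ab1), -0.75 to 6.08 (H2-Aa), -0.73 to 3.63 (H2-Eb1), -0.39 to 0.39 (H2-Q10), -1.37 to 3.60 (Cd74), -0.84 to 0.05 (H2-K1). Library size scaling moved the median of all genes against sham control from 0.09 to 0.23 and that of the members from -0.85 to -0.77. Sham and injured libraries share the numbers 1 and 2 in their titles, and same-numbered deviations correlated at 0.241 across genes; with 2 numbers and no label that ties them, this does not show pairing. The block called 0 members. Leaving out sham 1, injured 1 and injured 2 left no test against sham control. Precision is limited by the 2 sham libraries and 1 uninjured library, and a count of 0 by depth.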

Other observations

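Ratios between the counts of class II genes differed between libraries. The ratio of Cd74 counts to H2-Ab1 counts was 1.88 in sham 1, 1.48 in sham 2, 6.14 in the uninjured library, 1.71 in injured 1, 1.65 in injured 2, 0.171 in injured 3. The ratio of H2-Aa counts to H2-Ab1 counts was 0.478 in sham 1, 0.0120 in sham 2, 0.401 in the uninjured library, 0.538 in injured 1, 0.620 in injured 2, 0.0461 in injured 3. The ratio in sham 2 rests on 1 count of H2-Aa. Injured 3 held 586 counts of H2-Ab1 beside 27 of H2-Aa, 31 of H2-Eb1 and 100 of Cd74. H2-DMb1 counts divided by H2-Ab1 counts ranged from 0.0599 in injured 2 to 4.11 in sham 2. The ratio of B2m counts to H2-D1 counts was 0.363 in sham 1, 0.626 in sham 2, 0.500 in the uninjured library, 0.458 in injured 1, 0.879 in injured 2, 0.810 in injured 3. These ratios do not depend on the scaling between libraries, and no test is given for them.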
